A study of Rattus norvegicus with 2 samples.

Results

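NADPH oxidase makes superoxide, and the superoxide dismutases and catalase remove it and its product. The genes described are 9 by symbol: the oxidase subunits Cybb, Cyba, Ncf1 and Ncf4, the GTPases Rac1 and Rac2, the dismutases Sod1 and Sod2, and catalase (Cat). They are given by name, a list drawn up with earlier results of these data known, and 9 of 9 had reads among 15409 gene symbols, on 13 of 20367 listed transcripts. Transcript levels came from strand-specific RNA sequencing of RBL-2H3, an established rat basophilic leukaemia line used as a model of mast cells. Cells of the saline library received normal saline. Those of the treated library received PM2.5, the fine fraction of airborne particles, plus IgE and its antigen DNP-HSA. The labels leave unstated if IgE and antigen were part of the saline treatment, how long cells were exposed and how many cultures were used. Each group is 1 library of 1 cell line, so no difference below could be checked against replicates or tested between conditions. Particles and IgE with antigen were given together, so that their parts cannot be told apart.

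The phagocyte NADPH oxidase passes electrons from NADPH across a membrane to oxygen, which becomes superoxide. Its catalytic subunit Cybb (gp91phox, Nox2) and the partner Cyba (p22phox) sit in the membrane. The organiser Ncf1 (p47phox), Ncf4 (p40phox) and a GTP-bound Rac join them, with other cytosolic proteins, from the cytosol when the cell is stimulated. Dismutases turn superoxide into hydrogen peroxide and oxygen, Sod1 with copper and zinc mainly in the cytosol, Sod2 with manganese in the mitochondrial matrix. Catalase splits hydrogen peroxide into water and oxygen in peroxisomes. Mast cells are known to generate reactive oxygen species when their IgE receptor is crosslinked, and the series title names reactive oxygen species as the start of the axis under study.

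Reads recovered from the deposited values, summed over the 20367 listed transcripts, came to 7279671 in the saline and 3964955 in the treated library. The number of reads sequenced is not given. A normalised count is a gene's reads divided by the size factor of its library, and 1 read was worth 0.867 in the saline and 1.65 in the treated library. Folds are log2 values of the treated over the saline normalised count, each with 1 added. Intervals are exact 95% Clopper-Pearson limits of the log2 ratio without the added 1, and they cover counting error only. Reads also grow with transcript length, which was not used here, so that levels are compared between libraries and not between genes. Of the 11 mast cell markers looked for, 9 were measured and each had reads in both libraries, among them Kit (normalised count 10361 in saline and 8985 in treated) and the IgE receptor subunit Fcer1a (498 and 674). Their summed normalised count was 27511 in the saline and 26027 in the treated library, a sum mostly of Kit and Gata2. Of the 9, 1 was at least 2-fold higher and 1 lower: the carboxypeptidase Cpa3 at a log2 fold of 1.74 (interval 1.47 to 2.02, normalised counts 152 and 509) and the histamine-forming enzyme Hdc at -1.07 (interval -1.19 to -0.95, 2473 and 1178). Of all symbols with at least 20 reads over both libraries, 7.89% were at least 2-fold higher and 10.9% lower. The markers Tpsab1 and Mcpt2 were not measured.

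The 2 genes with the largest folds, Cybb and Sod2, are shown with the close counterpart of each by the 250 bases before their RefSeq gene starts (build GRCr8), since the members of each pair had different folds. Windows for 6 of the 9 genes were matched by symbol. The sequences read from 5′ to 3′ on the strand of the gene, and capitals mark matches, on either strand, to the motifs searched: the Sp1 box (spelled GGGCGG), the NF-Y box (spelled CCAAT), the TATA box (spelled TATAAA), the ETS motif (spelled GAGGAA), the AP-1 motif (spelled TGANTCA), the antioxidant response element (spelled TGACNNNGC) and the NF-kappaB consensus. Cybb lies on the minus strand of chrX:16065066-16065315, Cyba on the minus strand of chr19:67404215-67404464, Sod2 on the minus strand of chr1:50050169-50050418 and Sod1 on the plus strand of chr11:42942573-42942822.
Cybb: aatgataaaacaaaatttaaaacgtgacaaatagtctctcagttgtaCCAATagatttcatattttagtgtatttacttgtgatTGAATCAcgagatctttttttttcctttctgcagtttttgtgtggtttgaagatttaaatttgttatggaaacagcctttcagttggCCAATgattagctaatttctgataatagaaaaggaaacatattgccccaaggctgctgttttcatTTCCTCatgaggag
Cyba: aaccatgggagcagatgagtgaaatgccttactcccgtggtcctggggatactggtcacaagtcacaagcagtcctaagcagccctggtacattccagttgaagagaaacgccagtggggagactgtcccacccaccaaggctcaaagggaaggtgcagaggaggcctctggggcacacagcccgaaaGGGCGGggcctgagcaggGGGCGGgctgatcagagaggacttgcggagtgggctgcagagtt
Sod2: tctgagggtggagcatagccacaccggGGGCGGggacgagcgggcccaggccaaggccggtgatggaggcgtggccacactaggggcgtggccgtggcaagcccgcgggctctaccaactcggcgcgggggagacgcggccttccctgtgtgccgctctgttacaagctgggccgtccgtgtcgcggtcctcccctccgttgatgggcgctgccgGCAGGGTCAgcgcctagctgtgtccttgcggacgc
Sod1: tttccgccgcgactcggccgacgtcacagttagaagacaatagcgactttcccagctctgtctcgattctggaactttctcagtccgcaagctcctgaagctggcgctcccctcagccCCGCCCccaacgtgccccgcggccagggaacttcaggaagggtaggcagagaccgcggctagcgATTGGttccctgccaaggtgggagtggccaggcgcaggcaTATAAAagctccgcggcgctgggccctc

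The windows of Cybb and Cyba shared no motif of those searched, while those of Sod2 and Sod1 shared the Sp1 box. That of Cybb had a GC content of 32% and held the NF-Y box starting 203 and 79 bases before the start, the AP-1 motif at 166 bases, a pattern that matches on both strands, and the ETS motif at 14 bases. The Cyba window had a GC content of 59.6% and held the Sp1 box at 62 and 44 bases. The Sod2 window had the highest GC content of the 6, at 71.6%, with the Sp1 box at 223 bases and a match to the antioxidant response element at 35 bases. The Ncf1 window, not printed here, also held a match to that element, at 159 bases, and the log2 fold of Ncf1 was -0.01. The Cat window held only the NF-Y box and the ETS motif. In the Sod1 window (63.2%) the Sp1 box was at 132 bases, the NF-Y box at 68 and the TATA box at 28. The median GC content of all 33469 windows of this length was 51.2%. Of these windows, 30.5% held the Sp1 box, 34% the NF-Y box, 12.9% the TATA box, 23.3% the ETS motif, 6.34% the AP-1 motif, 10.1% the antioxidant response element and 3.54% the NF-kappaB consensus. These matches describe the letters and are not evidence of binding.

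Among the membrane subunits, Cybb was higher in the treated library and its partner Cyba was slightly lower. Cybb (ENSRNOG00000003622) had 11 reads in the saline library and 29 in the treated one, normalised counts of 9.54 and 47.9. Its log2 fold, with 1 added to each count, was 2.21. Without the added 1 the log2 ratio was 2.33 (interval 1.28 to 3.48), a ratio of 5.02 whose limits of 2.43 and 11.1 show how little 40 reads fix it. Cyba (ENSRNOG00000013014), which stabilises Cybb and also partners other NOX enzymes, had 906 and 379 reads, normalised counts of 786 and 626. Its log2 fold was -0.33 (interval -0.50 to -0.15). The ratio of Cybb to Cyba reads does not depend on the size factors, and it went from 0.0121 in the saline to 0.0765 in the treated library, a log2 change of 2.66 (exact conditional interval 1.59 to 3.82).

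Because Cybb is best known from phagocytes, markers of other blood cells were read beside it. Of 9 macrophage or monocyte markers 5 were measured. Their summed normalised count was 1520 in the saline and 836 in the treated library, a sum mostly of Csf1r (1215 and 472). The lysozyme gene Lyz2 was at a log2 fold of 1.40 (interval 0.91 to 1.93), whereas Csf1r, the receptor of macrophage colony-stimulating factor, was at -1.36 (interval -1.55 to -1.18). Cd68 had 19 reads in saline and 0 in the treated library, and Cd14 and Adgre1 were at -0.03 and -0.13. None of the 7 neutrophil markers, Mpo and Elane among them, was measured. The part of these markers in the value of Cybb was not tested. In bulk RNA, a different number of cells with a transcript and a different level of it in each cell cannot be told apart.

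The cytosolic subunits differed little between the libraries. Ncf1 (ENSRNOG00000001480), the organiser whose phosphorylation starts assembly, had normalised counts of 1035 in saline and 1024 in the treated library, a log2 fold of -0.01 (interval -0.16 to 0.13). Ncf4 (ENSRNOG00000006940), which binds a phosphoinositide of phagosome membranes, had 594 and 481, a log2 fold of -0.31 (interval -0.51 to -0.11). Reads for Ncf1 relative to Ncf4 went from 1.74 to 2.13, a log2 change of 0.29 (interval 0.04 to 0.54). The treated library was therefore higher for Cybb, slightly lower for Cyba and Ncf4, and within counting error of saline for Ncf1.

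**Figure D1:**
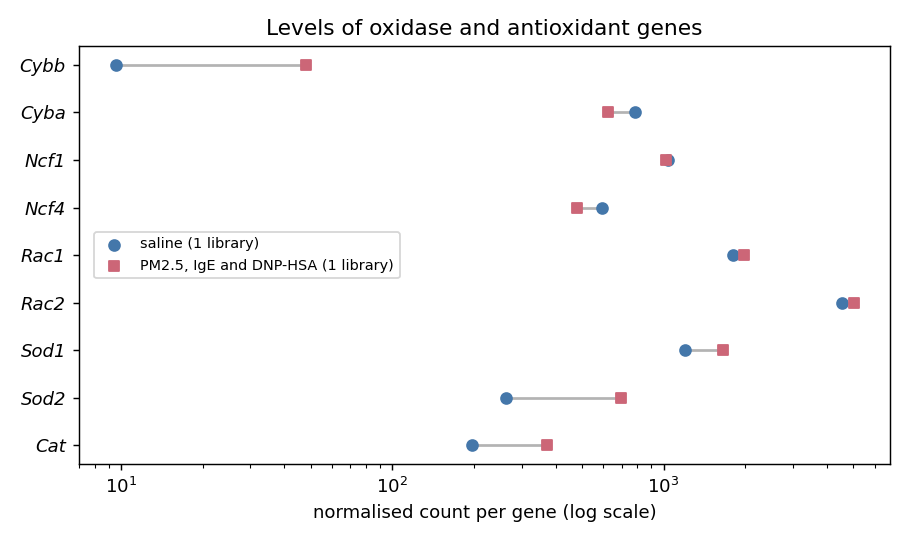
Normalised count per gene (x axis, log scale) of the 9 genes in the saline library (circles) and the library given PM2.5, IgE and DNP-HSA (squares), 1 library each. Cybb goes from 9.54 to 47.9 and Sod2 from 262 to 695, while the points of Ncf1 nearly coincide at 1035 and 1024.

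Both Rac GTPases were slightly higher in the treated library and by nearly the same factor. Rac2 (ENSRNOG00000007350), the isoform of blood cells, had 5223 and 3039 reads, normalised counts of 4530.0 and 5019. Its log2 fold was 0.15 (interval 0.08 to 0.21). Rac1 (ENSRNOG00000001068), which is expressed in most tissues, had 1804 and 1987 and a log2 fold of 0.14 (interval 0.04 to 0.24). The ratio of Rac1 to Rac2 reads was 0.398 in the saline and 0.396 in the treated library, a log2 change of -0.01 (interval -0.13 to 0.11).

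Rac1 and Ncf1 were the only ones of the 9 with more than 1 listed transcript. Of the 4 Rac1 transcripts, ENSRNOT00000001417 held 92.5% of the gene's reads in saline (exact interval 91.3% to 93.6%) and 92.4% in the treated library (90.7% to 93.8%), so the gene's fold is mostly that of this transcript, 0.14. ENSRNOT00000092558 held 6.11% and 7.15%, with a log2 fold of 0.36 (interval -0.05 to 0.77). ENSRNOT00000092628 went the other way, with 27 reads in saline and 3 in the treated library, a log2 fold of -2.04 (interval -4.61 to -0.54). ENSRNOT00000087094 had 1 and 3 reads, too few for a direction. The minor Ncf1 transcript ENSRNOT00000076916 had 4 and 11 reads and a log2 fold of 2.10 (interval 0.63 to 4.50), a share of 0.335% of Ncf1 in saline and 1.77% in the treated library. Among all transcripts, 39.6% were at least 2-fold apart either way, and the sources used here do not say how the authors divided reads between overlapping transcripts.

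The 3 enzymes of removal were all higher in the treated library, by unequal factors. Sod2 (ENSRNOG00000019048), the mitochondrial manganese enzyme, had 302 reads in saline and 421 in the treated library although the treated library was shallower. Its normalised counts were 262 and 695, a log2 fold of 1.41 (interval 1.19 to 1.63), or a ratio of 2.65 (2.28 to 3.09). Catalase (ENSRNOG00000008364) had 227 and 226 reads, normalised counts of 197 and 373. Its log2 fold was 0.92 (interval 0.65 to 1.20), so that the counting limits hold a 2-fold difference. Sod1 (ENSRNOG00000002115), the copper and zinc enzyme, had 1384 and 1006 reads, normalised counts of 1200.4 and 1662, and a log2 fold of 0.47 (interval 0.35 to 0.59).

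Ratios within a library show the order of the 3 without the size factors. Sod2 reads relative to Sod1 went from 0.218 in the saline to 0.418 in the treated library, a log2 change of 0.94 (interval 0.69 to 1.19). Relative to catalase, Sod2 changed by 0.49 (interval 0.13 to 0.84), and catalase relative to Sod1 by 0.45 (interval 0.16 to 0.75). The difference from saline was thus largest for Sod2, then catalase, then Sod1, each step beyond counting error, with 1 library a group behind it.

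**Figure D2:**
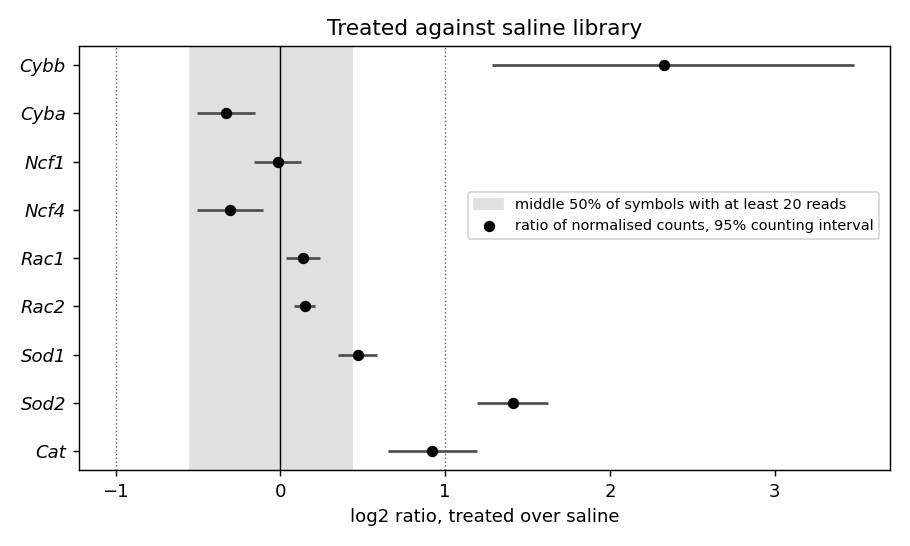
Log2 ratio of the treated over the saline normalised count (x axis) for each of the 9 genes, with exact 95% counting intervals, beside the middle 50% of 11479 symbols with at least 20 reads (grey, -0.55 to 0.44). The intervals of Cybb, Sod2 and Cat lie right of the grey band, Sod1 lies at its edge, and dotted lines mark 2-fold either way.

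Sources and removal were set side by side as sums of reads. The 4 oxidase subunits had a summed normalised count of 2424 in saline and 2179 in the treated library. The 3 removal enzymes had 1659 and 2730.2, and both Rac genes together 6334 and 7006. Reads of the oxidase subunits relative to those of the removal enzymes went from 1.46 in the saline to 0.798 in the treated library, a log2 change of -0.87 (interval -1.01 to -0.74). The sum hides Cybb, which went the other way: without it the change was -0.90 (interval -1.04 to -0.76). Rac1 and Rac2 relative to the removal enzymes changed by -0.57 (interval -0.68 to -0.46). Long transcripts weigh more in such sums, and transcript levels do not measure the activity of an oxidase that is assembled on stimulation.

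**Figure D3:**
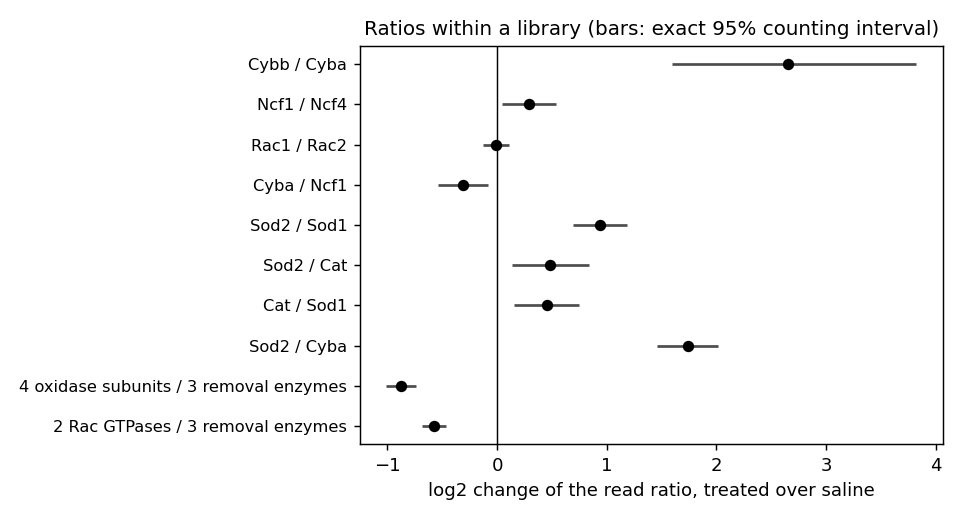
Log2 change, treated over saline library, of the ratio between the reads of the genes named at the left, with exact conditional 95% intervals for counting error. Cybb over Cyba (2.66) and Sod2 over Cyba (1.74) lie highest, Rac1 over Rac2 lies at -0.01, and the 2 plotted sums over the removal enzymes lie below 0.

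Set against the whole table, 2 of the 9 genes, Cybb and Sod2, passed 2-fold on the high side in the treated library and 0 on the low side. The same rule, a log2 fold of 1 or more either way where either library reached a normalised count of 1, took 12.1% of 15097 symbols as higher and 19.1% as lower. With at least 20 reads over both libraries, which 9 of the 9 genes had, it took 7.89% as higher and 10.9% as lower. The median log2 fold of the 9 genes was 0.15, that of the 11479 symbols with 20 reads -0.06. Counting intervals lay wholly above 0 for 6 of the 9 genes and for 27.8% of those symbols, and wholly below 0 for 2 of the 9 and for 32.7%. With only 9 genes these counts describe the libraries and single out nothing. By rank, 54 of the 11479 symbols had a log2 fold at least as high as Cybb (0.47%), 356 as high as Sod2 (3.1%), 1085 as high as Cat (9.45%) and 2703 as high as Sod1 (23.5%). On the low side, 35.3% of these symbols had a log2 fold as low as Cyba or lower, and 36.5% as low as Ncf4 or lower. A high rank is easier to reach with few reads, as for Cybb.

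Neighbouring genes were read beside the 9. For each gene the median log2 fold of its 10 nearest genes with at least 20 reads, in RefSeq order, was taken. Across 9381 genes, which share the same 2 libraries and overlapping neighbours, a gene's fold and this median had a Spearman correlation of 0.35. It was -0.39 for Cybb, -0.21 for Sod2, 0.03 for Cat and 0.03 for Sod1, where the middle 50% of 9381 such medians ran from -0.36 to 0.22. The neighbours of Sod2 and Cybb were thus not high. Cyba, itself below 0, had the lowest neighbour median of the 9 at -0.67. Ncf4 and Rac2 lie on the same chromosome with 7 measured genes between them and share neighbours.

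In the authors' deposited table, Sod2 had the lowest p-value of the 13 transcripts at 0.0953, and 465 of 20367 transcripts had one as low or lower. In the authors' deposited table Cybb was at 0.194 and Cat at 0.199, and the remaining ones lay between 0.305 for Sod1 and 0.886 for the main Ncf1 transcript. Adjusted p-values in the authors' deposited table were 0.92 for Sod2, Cybb and Cat, which is also the lowest in that table. None of the 9 genes passes an adjusted threshold there, and the sources used here do not name the model that gave p-values from 1 library a group.

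The further genes of the pathway came from 7 lists with 119 genes, of which 102 were measured. In these lists 2 genes (1.96%) passed 2-fold on the high side and 12 (11.8%) on the low side. Of all symbols 12.1% and 19.1% did, and of those with at least 20 reads 7.89% and 10.9%. Among 15 other oxidase subunits and maturation factors 7 were measured, 0 higher and 4 lower, with a median log2 fold of -1.45. Of these, 3 were Nox4 (5 reads in saline, 0 in treated), Duox1 (2 and 0) and Rac3 (10 and 0). Set against a floor of 3 treated reads, a normalised count of 4.95, Rac3 was less than 2-fold lower. The saline counts of Nox4 (4.34) and Duox1 (1.73) lay below that floor, and their folds were put at 0. With those values the median was 0. The other lower gene was Hvcn1, the proton channel that balances the charge moved by the oxidase, at -1.50 (interval -3.33 to -0.22, 29 and 5 reads). Rap1a, a GTPase found with the flavocytochrome, was at 0.87 (interval 0.67 to 1.08). Nox1, Nox3, Noxo1, Noxa1, Duox2, Duoxa1, Duoxa2 and Cybc1 were not matched and are not analysed here.

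Genes that load or unload Rac leaned to the low side. Of 23 measured exchange factors, inhibitors and related proteins, 1 was at least 2-fold higher and 2 lower, 18 had a fold below 0 (54.3% of all symbols did), and the median was -0.46 beside -0.07 for all symbols. The exchange factors Tiam1 and Vav2 were the lower ones, at -1.15 (interval -1.30 to -1.02) and -2.15 (interval -3.61 to -1.11, 63 and 7 reads). The Rac GTPase-activating protein Arhgap15 was higher at 1.37 (interval 0.86 to 1.92). The inhibitors that hold Rac in the cytosol went both ways, Arhgdia at -0.37 (interval -0.43 to -0.32) and Arhgdib, the blood cell form, at 0.27 (interval 0.19 to 0.35). Dock1, at -0.99 (interval -1.32 to -0.68), and Tiam2, at -0.92 (interval -1.38 to -0.49), fell just short of 2-fold. The exchange factors of blood cells Vav1 (-0.55), Dock2 (-0.54) and Prex1 (-0.55) stayed within 2-fold. So did the exchange factors Arhgef6, which was higher at 0.62 (interval 0.43 to 0.81), and Vav3, at -0.19 (interval -0.56 to 0.16).

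Of 14 kinases and lipid enzymes of oxidase assembly, 1 was higher and 1 lower, with a median of 0.00. Pla2g4a, the cytosolic phospholipase that releases arachidonic acid, was at 1.07 (interval 0.94 to 1.21), or 0.72 with its transcript of highest level alone. Pik3cd, a class I phosphoinositide 3-kinase, was at -1.52 (interval -1.70 to -1.34), whereas Pik3cg was at 0.58 (interval 0.46 to 0.70). The kinase Mapk14 was at -0.88 (interval -1.05 to -0.72). The 4 protein kinases C of the list went both ways, Prkca at -0.49, Prkcd at -0.48, Prkcb at 0.66 (interval 0.39 to 0.94) and Prkce at 0.18 (interval -0.08 to 0.43). In the list of other oxidant-producing enzymes, which also held scaffold proteins, 15 genes were measured, 0 higher and 2 lower, with a median of -0.09. The lower ones were Sh3pxd2a, an organiser-like scaffold of podosomes, at -1.18 (interval -1.93 to -0.54), and Dao with 5 and 0 reads, less than 2-fold with 3 reads in place of 0. The most highly read genes of that list, the disulfide isomerase P4hb and its oxidase Ero1a, were at 0.21 and -0.09.

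On the side of removal, the genes that supply metals to the dismutases stayed within 2-fold in 12 of 12 measured, with a median of 0.02. The copper chaperone of Sod1, Ccs, was at 0.23 (interval -0.06 to 0.52) and the copper carrier Atox1 at 0.12 (interval -0.16 to 0.39). The copper pump Atp7a was at 0.90 (interval 0.71 to 1.10), Slc31a1 at 0.63 (interval 0.32 to 0.94) and Slc25a39, a mitochondrial carrier, at -0.29. On the low side, Slc39a14 was at -0.94 (interval -1.30 to -0.60) and Slc31a2 at -0.91 (interval -1.75 to -0.18). Of the 12, 7 had a fold above 0 and 5 below. The extracellular dismutase Sod3 was not matched and is not analysed here. Of 14 measured enzymes that remove hydrogen peroxide beside catalase, 0 were higher and 2 lower, with a median of 0.15. The lower ones were Gpx3, with 21 and 4 reads and an interval that held 0 (-3.47 to 0.10), and Gpx8 with 4 and 0 reads, less than 2-fold by the same measure. Of the 14, 9 had a fold above 0 and 5 below. Prdx1, a cytosolic peroxiredoxin, and the thioredoxin Txn1 were near the threshold at 0.98 (interval 0.90 to 1.07) and 0.93 (interval 0.78 to 1.09), close to the value of catalase. Others lay nearer to saline: the peroxiredoxin Prdx2 at -0.03 (interval -0.18 to 0.12), Gsr at 0.03 (interval -0.11 to 0.17), Gpx4 at 0.14 and Gpx1 at 0.31. The mitochondrial peroxiredoxins Prdx3 (0.52) and Prdx5 (0.62) had lower folds than the mitochondrial Sod2. Txnrd1, the cytosolic thioredoxin reductase, was at -0.16, or -0.46 with its transcript of highest level alone.

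Peroxisome genes lay around 0. Of 17 measured, 0 were at least 2-fold higher and 1 lower, with a median of -0.05. The lower one was Pex6, an ATPase that recycles the import receptor, at -1.15 (interval -1.68 to -0.67). The membrane transporter Abcd3 was at 0.49 (interval 0.22 to 0.77).

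**Figure D4:**
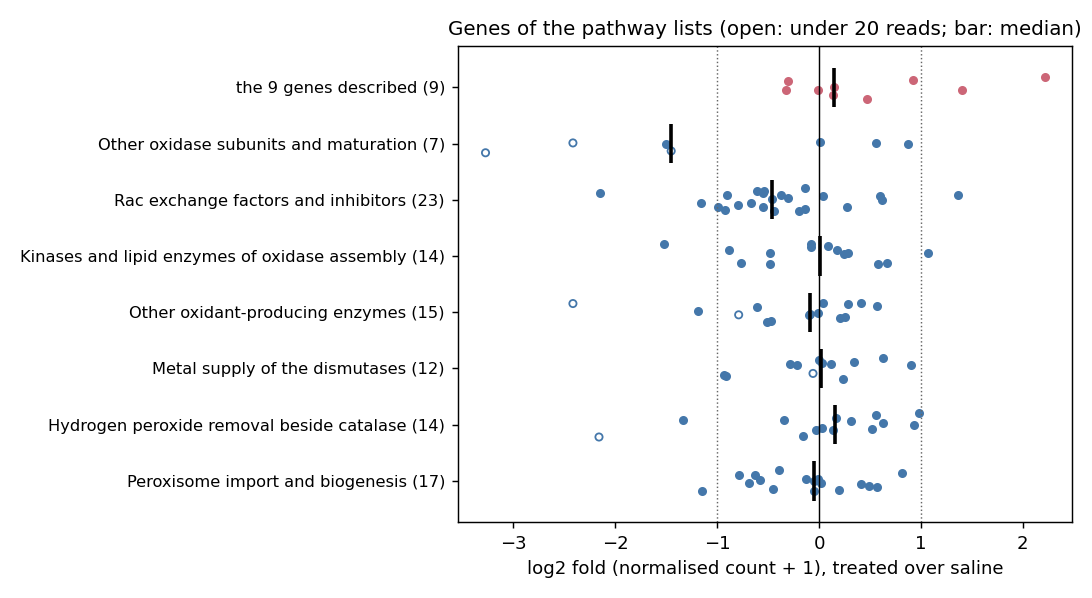
Log2 fold of the normalised count plus 1, treated over saline (x axis), for the 9 genes and for the measured genes of 7 pathway lists (numbers in brackets), with medians as bars and genes under 20 reads as open circles. The Rac list has its median at -0.46, and the low median of the other oxidase subunits, -1.45, includes 3 open circles.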

How the data were processed

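The authors deposited 1 log2 value per transcript and library. Undoing the log2 and subtracting 1 gave whole reads times a constant for 100% of values (tolerance 1e-06), as counts over a size factor would (1.15 for saline, 0.605 for treated). DESeq 1.22.1, Cuffnorm, STAR 2.5 and FastQC appear in the submitters' processing notes, with no role stated; for build, annotation and counting options the sources used here say nothing. The deposited p-values of the authors were copied as listed, and the authors' fold, saline minus treated, was not used. RNA was extracted with Tripure, per the labels' protocols.

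Transcripts were summed by symbol; 1276 without one were left out. A further 8 columns, found over the 3 deposited tables, repeat these values and were not used. The 9 genes and the lists were chosen with earlier results of these data known. The design left the unit open, and the log2 values found were used without a count model. Genes named from a list are those past the size rule with at least 20 reads and the 2 with the highest mean; other list genes named were picked after their values were seen. Some genes taken by this rule are not reported here. A gene at 0 in the treated library was set against 3 reads, a normalised count of 4.95. Where its saline count lay below that, its fold was put at 0. In the lists 1 gene, Sqor, matched through a RefSeq synonym. Intervals for ratios of genes are exact conditional ones. The procedure was tested on data simulated with counting error alone, so that test says nothing about spread between cultures or libraries. Alternatives were other pseudocounts, filters, scalings and the transcript of highest level alone. Motifs were searched in 250 bases before RefSeq starts. SciPy 1.17.1, pandas 2.3.3, NumPy 2.4.6 and Matplotlib 3.10.9 ran under Python 3.11.15.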

Additional observations from a re-analysis of the deposited data

How the results depend on the processing

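Under another pseudocount, none, 3 rescalings and the transcript of highest level alone, the log2 folds of the 9 genes stayed within their counting intervals: Cybb ranged from 1.86 to 2.33, Sod2 from 1.35 to 1.43, Cat from 0.87 to 0.95 and Ncf1, whose interval held 0, from -0.07 to 0.01. The count of 2 higher genes among the 9 was the same under each alternative. Over all symbols, 1826 higher and 2876 lower became 1080 and 1477 with a normalised count of at least 10, 1023 and 1650 with a pseudocount of 5, and 906 and 1256 with at least 20 reads, the last chosen after seeing the data. In the lists, the 4 lower other oxidase subunits became 1 with the filter of 10, 2 with a pseudocount of 5 and 1 with 20 reads. The 2 lower genes in the list of oxidant-producing enzymes and the 2 lower peroxide-removing enzymes each became 1 with each of these settings. With the transcript of highest level alone, higher kinases and lipid enzymes went from 1 to 0 and higher metal supply genes from 0 to 1. The ratio of oxidase subunits to removal enzymes was -0.87, and from -0.99 to -0.80 with the transcript of highest level alone or without 1 of its 4 subunits. Depth limits Cybb, at 11 and 29 reads, most of the 9. No paired analysis was possible because each group has 1 library.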
